A study of Mus musculus with 2 samples.

Results

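The Reg genes encode small secreted proteins with a C-type lectin fold. The genes described are Reg3b, Reg3g, Reg3a, Reg3d and Reg4, taken by their GENCODE mouse symbols from the gene and transcript tables. All 5 were found, among 43346 Ensembl genes in the tables. They were measured in the colon of C57BL/6J mice aged 8 weeks, in 2 libraries of a single group, with no treatment named, that the labels number as biological replicates 1 and 2. The labels describe littermates with males and females pooled. Both libraries carry the same donor record, though their sex-linked reads differ, as given below. How much of their spread is technical is not known. Each library held polyadenylated RNA longer than the size limit in the labels, depleted of ribosomal RNA, read as stranded pairs of 76 nt. Replicate 1 had 46271167 expected counts on Ensembl genes and replicate 2 had 45499561. There is no second group, so the Reg genes can be described by level and set side by side between the libraries only.

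In the gut, Reg3b and Reg3g act as antibacterial lectins at the mucosal surface. Their transcription in epithelial cells is known to rise when microbes are sensed through MyD88 and when interleukin-22 signals through STAT3. Reg4 marks secretory cells at the base of colonic crypts and is also found in hormone-producing cells of the epithelium. Reg1 and Reg2, relatives from the same chromosomal cluster, are known as products of pancreatic acinar cells. They are given here beside the 5 genes because they sit between them.

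The members are related enough that reads could be assigned to the wrong gene, so their sequences were compared first. All 4 Reg3 messages open with a signal peptide for secretion, and the first 90 bases of each coding sequence are shown for that reason, from GENCODE vM21 transcripts. Capitals mark bases unlike Reg3b at the same position, counted without gaps from the start codon.
Reg3b: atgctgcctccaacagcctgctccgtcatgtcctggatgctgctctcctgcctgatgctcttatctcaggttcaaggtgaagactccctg
Reg3g: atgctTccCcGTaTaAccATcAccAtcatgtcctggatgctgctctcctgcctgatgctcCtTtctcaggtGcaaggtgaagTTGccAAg
Reg3a: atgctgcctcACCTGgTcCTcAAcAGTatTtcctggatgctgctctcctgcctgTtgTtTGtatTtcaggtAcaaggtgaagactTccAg
Reg3d: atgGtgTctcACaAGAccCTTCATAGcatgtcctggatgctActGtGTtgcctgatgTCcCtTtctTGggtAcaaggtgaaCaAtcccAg
Of these 90 positions, 18 differed from Reg3b in Reg3g, 22 in Reg3a and 29 in Reg3d. The longest run of bases that Reg3b and Reg3g share exactly lies in this stretch.
Shared by Reg3b and Reg3g: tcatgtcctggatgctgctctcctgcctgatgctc

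That run is 35 bases, shorter than a 76 nt read. It was the longest shared by any pair among the 5 genes, Reg1 and Reg2. Over whole coding sequences, Reg3b was 76.4% identical to Reg3g, 75.9% to Reg3a and 70.3% to Reg3d, while its identity with Reg4 was 65.1%. The deposited posterior standard deviation of the count was 0 for each of the 5 genes, and for Reg1 and Reg2, in both libraries. Their expected counts were whole numbers, so no reads were recorded as divided with another gene. No other GENCODE vM21 gene overlaps any of them.

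Before the levels are given, some features of the libraries need stating. Replicate 1 had 8721 reads of Xist and 0 of 4 Y-linked genes, and replicate 2 had 12 and 1382, which goes against the pooled sexes in the labels. The 10 absorptive colonocyte markers totalled 20098 TPM (replicate 1) and 21745 TPM (replicate 2), so colon epithelium was present in both. By the test described below, 0 of the 10 were called different, beside 6.35% of all genes tested. A list this short cannot tell 0 calls from that share. TPM, an abundance scaled to a fixed total per library, is a level per length of transcript. Markers of pancreatic acinar cells, which the label does not name, totalled 4566 TPM (replicate 1) and 50799 TPM (replicate 2). Of the 21 acinar genes, 20 were called higher in replicate 2, beside 3.81% of all genes tested. Among the 20 were Cela2a (8.45 against 10083 TPM), Cela3b, Prss2, Ctrc and Cel, and Sycn was not called. With edgeR's exact test 19 were called, and Bhlha15 (log2 ratio -1.02) was lost (adjusted p = 1). Ctrb1, a chymotrypsinogen, had 310 counts against 298656. Pla2g1b and Ptf1a were at 0 counts in replicate 1, and most of the acinar TPM there came from Sycn (3930), Cela1 (423) and Clps (172). The sex-linked and acinar reads separate the same libraries as every Reg difference below, and their part in those differences was not tested. The islet hormone genes Ins1 and Ins2 had 390 and 771 counts in replicate 2 and 0 in replicate 1, while Ppy, which colon endocrine cells can also make, had 251 and 142 TPM.

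Reg3b, known in older literature as a pancreatitis-associated protein, was the most abundant of the 5. It had 565 TPM in replicate 1 and 199.6 in replicate 2, a level of 383 ± 259 TPM (SD, n = 2). The gene lies on chromosome 6, 78370657 to 78373466 on the plus strand of mm10 (ENSMUSG00000071356.5). Among protein-coding genes it ranked at place 212 in replicate 1 and 669 in replicate 2, where 12639 and 12801 such genes reached 1 TPM. Its level was thus high in both libraries and well apart between them. In bulk tissue, fewer cells of a type and less RNA per cell cannot be told apart.

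Reg4 came next, with 92.0 TPM in replicate 1 and 128 in replicate 2, or 110.1 ± 25.6 TPM (SD, n = 2). It is the only member outside the cluster, on chromosome 3, 98222156 to 98236748 on the plus strand (ENSMUSG00000027876.4). It ranked at place 1643 and 1090 among protein-coding genes. In both libraries it lay below Reg3b, by a TPM ratio of 6.15 in replicate 1 and 1.56 in replicate 2, so the order held while the distance did not.

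Reg3g, the lectin best known for killing Gram-positive bacteria, had 25.5 TPM in replicate 1 and 38.05 in replicate 2, or 31.8 ± 8.85 TPM (SD, n = 2). It closes the cluster on chromosome 6, 78466269 to 78468872 on the minus strand (ENSMUSG00000030017.2). The ranges of Reg3b, Reg4 and Reg3g did not overlap, and this order was the same in each library. The ratio of Reg4 to Reg3g was 3.60 and 3.37 in the libraries, whereas the ratio of Reg3b to Reg3g was 22.1 and 5.25. Reg3b made 82.8% of the TPM of the 5 genes in replicate 1 and 53.8% in replicate 2, while Reg4 made 13.5% and 34.6% and Reg3g 3.74% and 10.3%.

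Reg3d and Reg3a were the least abundant, with at most 6 reads in replicate 1. Reg3d, which RefSeq also lists under the name INGAP, had 0 reads in replicate 1 and 80 in replicate 2, where its level was 3.81 TPM. A count of 0 allows up to 3 reads, or 0.163 TPM, for this gene in replicate 1. Reg3d lies on chromosome 6, 78375874 to 78378865 on the minus strand (ENSMUSG00000068341.4). Reg3a, on chromosome 6, 78380709 to 78383827 on the plus strand (ENSMUSG00000079516.1), had 6 reads and 0.26 TPM in replicate 1 against 24 reads and 1.04 TPM in replicate 2. The ranges of Reg3d and Reg3a overlapped, so their order is not settled, and both stayed far below Reg3g.

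**Figure D1:**
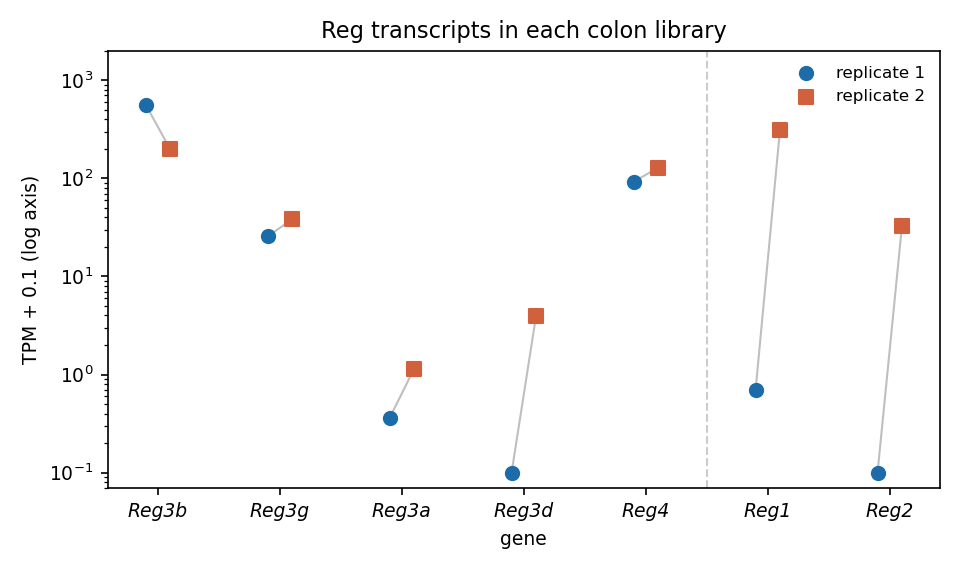
Level of each Reg gene in the 2 colon libraries, as TPM with 0.1 added, on a log axis. Circles are replicate 1, squares are replicate 2, lines join the libraries, and the dashed line parts the 5 genes from Reg1 and Reg2. Reg3b is the member that lies higher in replicate 1 (565 against 199.6 TPM), and every other gene shown lies higher in replicate 2.

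The transcript tables placed nearly all abundance of each expressed member on its coding transcript. Reg3b, Reg3a and Reg4 had a single transcript in the annotation the authors used. For Reg3g, the 771 nt coding transcript took 99.48% of the gene's abundance in replicate 1 and 99.37% in replicate 2, and a 2089 nt transcript annotated as a retained intron took 0.52% and 0.63%. In expected counts the retained-intron form had 9.16 and 16.34 reads. For Reg3d, all 80 reads of replicate 2 went to the 782 nt transcript and 0 to the 644 nt one. With 0 reads of the gene in replicate 1, no share can be given there.

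The 6 Reg genes of chromosome 6 follow each other with no other annotated gene between them, in the order Reg3b, Reg3d, Reg3a, Reg2, Reg1 and Reg3g. Reg3g starts its span 95.6 kb from the start of Reg3b, and both outer genes were expressed in each library. The inner 4 had between 0 and 12 reads each in replicate 1. Reg2 had 0 reads in replicate 1 and 575 in replicate 2 (32.4 TPM), and Reg1 had 12 and 6354 (0.59 and 309.6 TPM). In replicate 2, Reg1 therefore stood above Reg3b. Summed over the 5 genes, the level was 683 TPM in replicate 1 and 371 in replicate 2. With Reg1 and Reg2 added the sums were 684 and 713, and those 2 genes made 0.0863% and 48.0% of the total. A sum over the family thus hides opposite differences of its members.

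**Figure D2:**
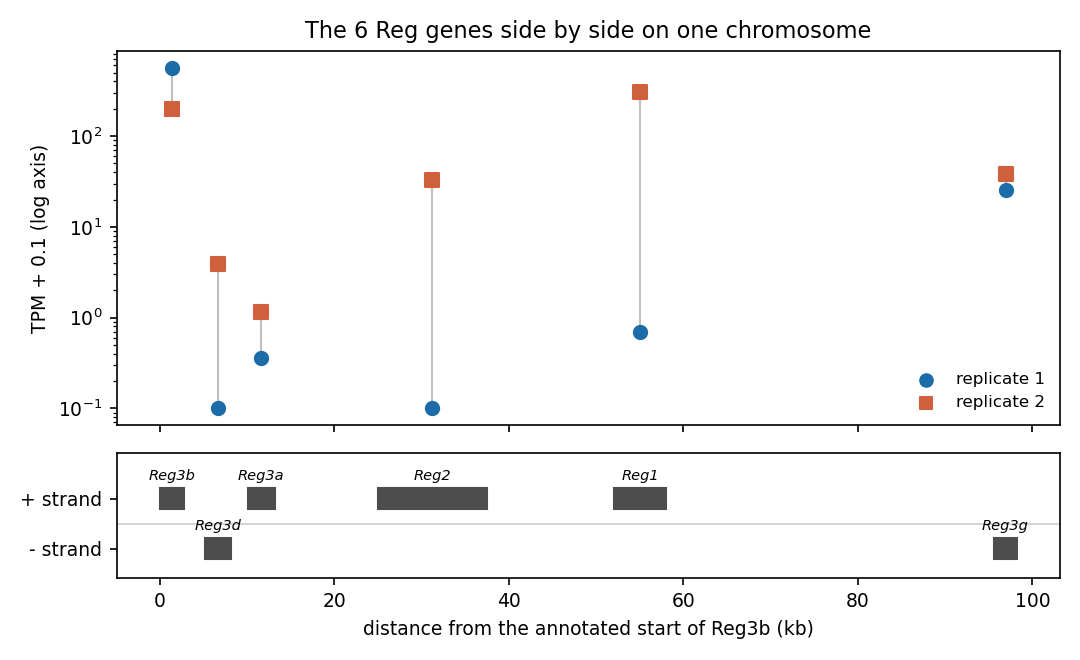
Upper panel: TPM with 0.1 added (log axis) of the 6 neighbouring Reg genes in replicate 1 (circles) and replicate 2 (squares), placed at the middle of each gene. Lower panel: the annotated genes to scale by strand, as distance in kb from the start of Reg3b. Reg3b and Reg3g at the ends have signal in both libraries, while Reg3d, Reg3a, Reg2 and Reg1 between them are at or below 0.59 TPM in replicate 1.

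Set against each other, the libraries differed in 3 of the 5 members, Reg3b in one direction and Reg3d and Reg3a in the other. Counts were compared by a two-sided exact binomial test across all genes, and a gene was called at a Benjamini-Hochberg adjusted p of at most 0.05 and a difference of at least 2-fold. All 5 members passed the minimum of 10 summed counts. Over the 17713 genes tested, 6.35% were called, 2.55% as higher in replicate 1 and 3.81% as higher in replicate 2. Among the 15549 protein-coding genes tested the shares were 4.57%, 1.8% and 2.77%. The test covers counting error only and compares these libraries, so no difference here has a replicate check.

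Reg3b had 11347 reads in replicate 1 and 4024 in replicate 2, or 245 and 88.4 CPM, which is counts scaled to library size. It was 2.76-fold higher in replicate 1, a log2 ratio of 1.46 (95% interval 1.41 to 1.52, exact, counting error only), and was called. Of 1409 tested genes with a mean level between 100 and 1000 TPM, 28 (1.99%) lay at least this far from 0 in either direction. With edgeR's exact test at the spread estimated from these libraries, the call was lost (adjusted p = 0.432). That spread is a biological coefficient of variation of 0.271, shared by every gene and estimated with the real differences included. It left 1.35% of genes called.

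Reg3d was at least 27.2-fold higher in replicate 2, taking 3 counts for the 0 of replicate 1 (exact binomial adjusted p = 4.75e-24). The same call was made by edgeR's exact test (adjusted p = 8.94e-08). Reg3a was 3.85-fold higher in replicate 2, a log2 ratio of -1.94 with an interval from -3.61 to -0.70. Its exact binomial adjusted p was 0.00225, and edgeR's exact test did not call it (adjusted p = 0.804). At 6 and 24 reads, the size of the Reg3a difference is poorly fixed.

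Reg3g and Reg4 were not called. Reg3g had 530 and 795 reads, a log2 ratio of -0.62 (interval -0.78 to -0.46), and Reg4 had 2727 and 3795, a ratio of -0.51 (interval -0.58 to -0.44). Both were higher in replicate 2 beyond counting error (exact binomial adjusted p = 1.49e-13 and 8.66e-44) but by less than 2-fold. At any fold, 49.5% of all genes tested had an exact binomial adjusted p of at most 0.05, so passing that threshold alone was common between these libraries. Differences of this size were less common. Of 6197 tested genes with a mean level between 10 and 100 TPM, 355 (5.73%) lay at least as far from 0 as Reg3g. Of 2607 between 50 and 500 TPM, 203 (7.79%) lay at least as far as Reg4. By their log2 ratios, Reg3b and Reg3g, both lectins of the gut surface, lay on opposite sides of 0.

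**Figure D3:**
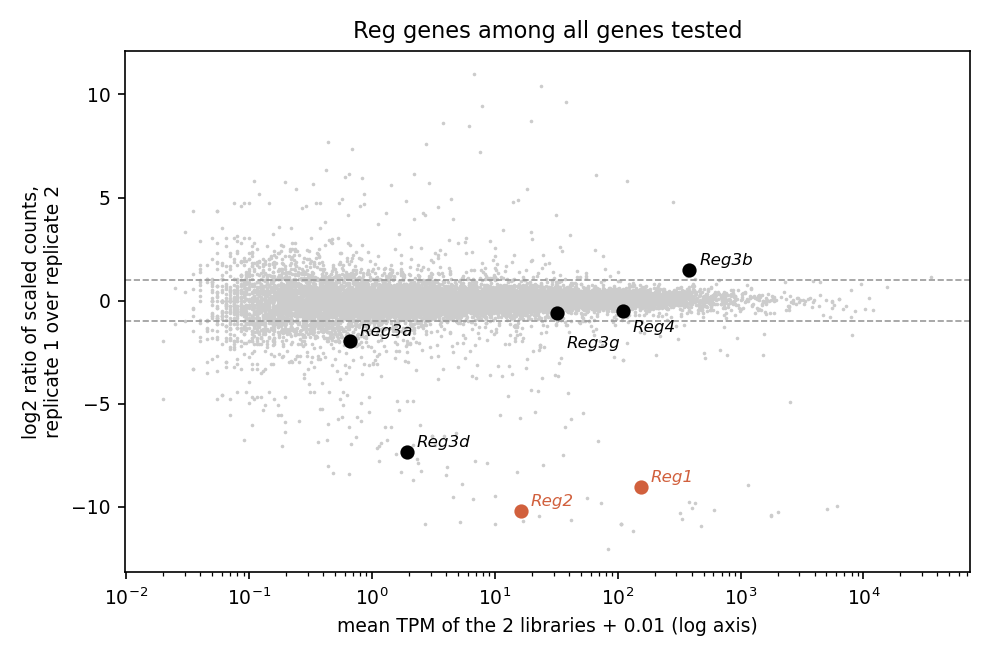
Each grey point is a gene tested, by mean TPM of the libraries with 0.01 added (log axis) and log2 ratio of scaled counts, replicate 1 over replicate 2. Black points are the 5 genes and orange points Reg1 and Reg2, and dashed lines mark a 2-fold difference. Reg3b (1.46) lies above the upper line, Reg3g (-0.62) and Reg4 (-0.51) lie between the lines, and Reg3a and Reg3d lie below with Reg1 and Reg2.

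Reg1 and Reg2 were higher in replicate 2, as Reg3d was. Reg1 had a log2 ratio of -9.02 (interval -10.03 to -8.27), and Reg2 was at least 196-fold higher in replicate 2. The acinar list had a median log2 ratio of -9.78, or -9.63 with counts of 0 set to 3, beside a median of 0.00 over all genes tested. Per 1000 counts of Ctrb1, Reg1 had 38.7 counts in replicate 1 (interval 19.8 to 68.6) and 21.3 in replicate 2 (20.8 to 21.8). Reg3d had 0.268 per 1000 in replicate 2, and its 0 in replicate 1 allows up to 11.97. Reg3a had 19.4 per 1000 in replicate 1 (interval 7.05 to 42.6) and 0.0804 in replicate 2 (0.0515 to 0.120). Reg3b had 36603 per 1000 in replicate 1 and 13.5 in replicate 2, Reg4 had 8797 and 12.7, and Reg3g had 1710 and 2.66. Which cells these Reg reads came from was not tested. Ctrb1 was picked as the denominator after its values were seen, and other acinar genes differed between the libraries by other amounts, Clps by a log2 ratio of -4.89.

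Defence genes that epithelium is known to induce together with Reg3 lectins included 4 that were higher in replicate 1, as Reg3b was. Of 19 such genes, 17 were tested, 4 were called higher in replicate 1 and 0 higher in replicate 2. Over all genes tested, the shares called were 2.55% and 3.81%. The list's median log2 ratio was 0.44 beside the 0.00 of all genes, and its ratios ran from -0.65 to 2.55. The 4 were Saa2, an acute-phase serum amyloid (17.3 against 2.84 TPM, log2 ratio 2.55), the lectin Itln1 (5.46 against 1.06 TPM, 2.32), the antimicrobial ribonuclease Ang4 (40.5 against 8.44 TPM, 2.22) and the oxidase maturation factor Duoxa2 (63.98 against 28.4 TPM, 1.15). With edgeR's exact test Saa2, Itln1 and Ang4 were still called (adjusted p = 0.00581, 0.0197 and 0.0179) and Duoxa2 was not. Among the most abundant of the list, Lypd8 (11364 and 10824 TPM), Pigr (745 and 833 TPM), Saa1 (511 and 363 TPM) and Fut2 (141 and 91.6 TPM) were not called. Duox2, the oxidase that Duoxa2 matures, had 67.9 and 39.4 TPM and was not called either, and the phagocyte genes S100a8 and S100a9 were below 1 TPM in both libraries. Reg3g, a classical member of this response, had its log2 ratio of -0.62 on the other side.

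Genes known to act upstream of Reg3 were taken next, and none of those tested was called. The share called over all genes tested was 6.35%, and lists this short cannot tell 0 calls from it. Of 12 genes of the interleukin-22 and interleukin-17 axis, 6 were below 1 TPM in both libraries, and Il23r had 4 and 0 counts. None of the 8 tested genes of this axis was called (median log2 ratio 0.00). The receptor chains Il17rc (326 and 334 TPM), Il22ra1 (54.5 and 41.6), Il10rb (43.4 and 38.1) and Il17ra (15.3 and 14.8) were all present. Il22 and Il17a themselves had 0 counts in both libraries, which at 3 reads allows up to 0.0648 and 0.0659 CPM. Among gp130 cytokines and STAT3 components, 0 of 13 were called, and Il6 had 0 counts in both. Il11ra1 (73.1 and 90.3 TPM), Stat3 (80.1 and 73.7), Tyk2 (33.2 and 31.6) and Jak1 (23.3 and 25.5) led this list. Socs3, a feedback target of STAT3, had 23.6 and 17.2 TPM. Of 10 microbial sensors and adaptors, 0 were called. Nlrp6 (90.04 and 74.6 TPM), Ticam1 (43.9 and 38.5), Myd88 (25.9 and 23.4) and Nod1 (21.5 and 19.2) led that list. Extl3, a proposed receptor for Reg proteins, had 20.6 and 18.5 TPM.

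Reg4 was set beside markers of the cells it is known from. None of the 15 goblet and deep crypt secretory markers was called, beside 6.35% of all genes tested, and their median log2 ratio was -0.09. Muc2 (8861 and 11591 TPM), Spink4 (6785 and 7501), Tff3 (5686 and 5448) and Zg16 (3432 and 4134) led, and Kit, a marker of deep crypt secretory cells that pacemaker cells share, had 35.8 and 30.7. The ratio of Reg4 to Muc2 was 0.0104 and 0.0111, and that of Reg4 to Spink4 was 0.0136 and 0.0171. Log2 ratios within this list ran from -0.68 to 0.24. In the enteroendocrine list, 2 of 13 genes, Chgb and Nts, were called higher in replicate 1 (log2 ratios 1.04 and 1.04), and the list's median was 0.54, opposite in sign to Reg4 (-0.51). Both calls were lost in edgeR's exact test (adjusted p = 1 for each). Pyy (2056 and 1860 TPM), Sct (162 and 87.2), Insl5 (96.9 and 131) and Sst (104 and 90.2) were the most abundant there, followed by Chga (113 and 76.6), the general granule marker. The ratio of Reg4 to Chga was 0.816 in replicate 1 and 1.67 in replicate 2. Members of the endocrine list lay on both sides of 0, and Insl5 had a log2 ratio of -0.47, on the side of Reg4.

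**Figure D4:**
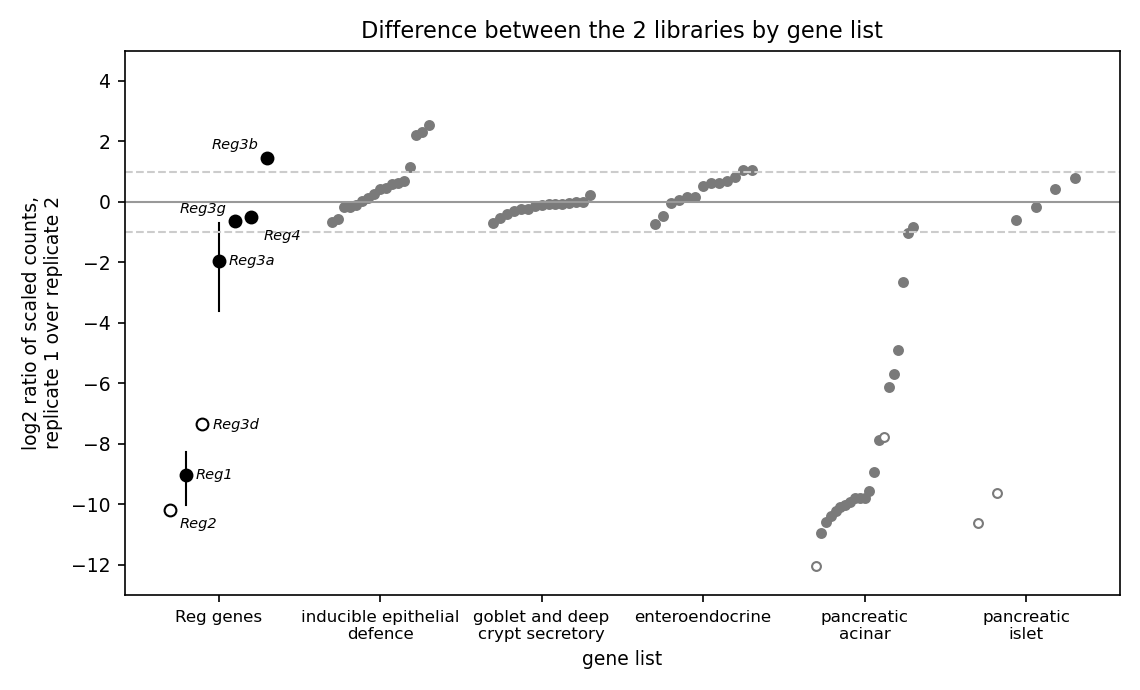
Log2 ratio of scaled counts, replicate 1 over replicate 2, for the Reg genes (black, with exact 95% intervals for counting error) and for the tested members of other lists (grey, ordered by value). Open symbols had 0 counts in replicate 1, so their height depends on the 0.5 added to each count and is no bound. Goblet markers lie near 0, and 4 defence genes lie above 1 with Reg3b. Reg1 (-9.02) and Reg3a (-1.94) lie within the range of the acinar genes. Reg2 and Reg3d, with open symbols, cannot be placed among them by height. Which cells the Reg reads came from was not tested.

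Other lectins and neighbouring tissues gave a scale for these levels. Lgals4 (3806 and 3470 TPM), Lgals3 (3247 and 3160 TPM) and Zg16 exceeded Reg3b, and Lgals1 (220 and 198 TPM) was below it in replicate 1 and within 2 TPM of it in replicate 2. Of 7 lectins tested, Itln1 and Lgals2 (5.47 and 1.71 TPM, log2 ratio 1.61) were called higher in replicate 1 and 0 higher in replicate 2. Over all genes tested, the shares called were 2.55% and 3.81%. The Lgals2 call was lost in edgeR's exact test (adjusted p = 0.545). Reg3b and Reg3g are known to be abundant in small intestine, and 13 markers of that tissue and its Paneth cells totalled 57.2 and 54.4 TPM. Most of it came from Alpi (36.4 and 27.8 TPM) and Fabp2 (10.5 and 18.3 TPM). Of the 10 tested, Mptx2 (4.99 and 0.21 TPM) and Sis were called higher in replicate 1, and Lyz1 (2.23 and 4.84 TPM) and Apoa4 higher in replicate 2. The shares over all genes tested are those given above. Sis had 53 and 17 reads but nearly equal levels of 0.25 and 0.24 TPM. Apoa4 had 6 and 17 reads, at 0.1 and 0.29 TPM. With edgeR's exact test the Mptx2 call was kept and those of Sis, Lyz1 and Apoa4 were lost (adjusted p = 0.759, 1 and 1). The Paneth cell genes Defa17, Defa24 and Defa30 had 0 counts in both libraries. Macrophage markers totalled 491 and 456 TPM, with 0 of 8 called, and C1qc (153 and 118 TPM) and Lyz2 (111 and 119.8 TPM) led them.

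The genes nearest to Reg3b, Reg4 and Reg3d in both libraries were found by the distance between log2(TPM + 1) values, over 2 libraries only. Azin1 (533 and 199 TPM), Aph1a and Eno1 were nearest to Reg3b. Slc20a1, Ccng2 and Muc4, a membrane mucin, were nearest to Reg4. Eif2s3y, which is Y-linked, Npcd and the trypsinogen Prss1 were nearest to Reg3d, each listed at 0 TPM in replicate 1. With 2 points per gene this describes TPM levels only. Log2 ratios of counts were 1.21, 0.65 and 0.67 for Azin1, Aph1a and Eno1, beside 1.46 for Reg3b. For Slc20a1, Ccng2 and Muc4 they were -0.64, 0.08 and -0.57, beside -0.51 for Reg4.

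Promoters of the 4 Reg3 genes are shown as reference sequence, and no link between their letters and the library differences was tested. The windows run from 250 bases before to 50 after the RefSeq start on GRCm38.p6, written 5′ to 3′ on the gene's own strand. They lie at chr6:78370635-78370934 (plus strand) for Reg3b, chr6:78468825-78469124 (minus strand) for Reg3g, chr6:78380459-78380758 (plus strand) for Reg3a and chr6:78378816-78379115 (minus strand) for Reg3d. Capitals mark matches, on either strand, to a pair of motifs. The first is the promoter element TATAAA. The second is the core of a STAT site, whose letters are TTCNNNGAA.
Reg3b: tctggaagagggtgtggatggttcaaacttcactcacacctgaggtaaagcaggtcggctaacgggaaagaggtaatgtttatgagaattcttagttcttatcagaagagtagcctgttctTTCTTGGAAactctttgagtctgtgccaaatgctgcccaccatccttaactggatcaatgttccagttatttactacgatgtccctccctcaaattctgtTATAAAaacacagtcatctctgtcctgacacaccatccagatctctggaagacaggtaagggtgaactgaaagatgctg
Reg3g: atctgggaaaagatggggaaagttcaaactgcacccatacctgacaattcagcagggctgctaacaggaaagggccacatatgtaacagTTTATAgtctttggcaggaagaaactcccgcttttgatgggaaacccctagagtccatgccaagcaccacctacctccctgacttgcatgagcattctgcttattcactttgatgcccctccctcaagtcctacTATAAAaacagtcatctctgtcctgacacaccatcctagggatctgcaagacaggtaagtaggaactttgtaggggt
Reg3a: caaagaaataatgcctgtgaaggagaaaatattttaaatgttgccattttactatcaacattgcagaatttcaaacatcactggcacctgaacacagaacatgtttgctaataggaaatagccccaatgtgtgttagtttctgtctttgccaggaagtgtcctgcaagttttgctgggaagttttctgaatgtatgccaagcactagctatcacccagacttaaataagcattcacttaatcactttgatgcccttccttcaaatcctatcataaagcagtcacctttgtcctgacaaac
Reg3d: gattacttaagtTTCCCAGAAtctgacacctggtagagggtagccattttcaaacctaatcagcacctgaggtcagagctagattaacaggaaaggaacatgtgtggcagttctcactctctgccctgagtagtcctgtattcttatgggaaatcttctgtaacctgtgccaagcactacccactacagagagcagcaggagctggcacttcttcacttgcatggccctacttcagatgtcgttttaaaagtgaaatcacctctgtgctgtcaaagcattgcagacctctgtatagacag
A TATAAA match began at position -29 from the start in Reg3b and at -27 in Reg3g, on the gene's strand, and Reg3g had another on the opposite strand. Neither Reg3a nor Reg3d matched it. The Reg1 and Reg2 windows, not shown, each had a match at -30 on the gene's strand. These genes had 12 and 0 reads in replicate 1, and 6354 and 575 in replicate 2. The Reg4 window, also not shown, matched neither motif. The TTCNNNGAA letters were found in Reg3b, at position -129, and in Reg3d, at -238. Among 32544 promoter windows of the same length, 13.6% held TATAAA and 8.33% held TTCNNNGAA. The Reg3b and Reg3g windows were 71.4% identical. A match describes letters and not a bound site.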

How the data were processed

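Polyadenylated RNA of mouse colon was measured in 2 libraries. Per the deposited file notes, the gene and transcript tables rest on the mm10 assembly with GENCODE M4. The tables hold, per the file headers, expected counts (estimated reads per feature, not normalized), TPM and its posterior mean, FPKM, the posterior standard deviation of the count (a score in reads), and, for transcripts, the percent of a gene's abundance, all as the authors deposited them. For aligner, quantifier and the use of strand in counting, the record is: not given in the sources used here. Junction and contig files on mm9 were not used here, since no mm9 annotation was at hand.

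GENCODE vM21, matched on identifiers stripped of their version, gave symbols and coordinates, and 42462 of 43346 Ensembl genes matched. Spike-ins, 0.896% and 1.02% of the counts, stayed out of library sizes and tests. Expected counts were rounded and compared by the exact binomial test (scipy 1.17.1), with library sizes scaled by TMM in edgeR 4.0.16 (R 4.3.3) and 0.5 added to each count in log2 ratios. Intervals are exact (Clopper-Pearson), and intervals and floors of 3 counts cover counting error only. The test was checked on simulated data with counting error only, which does not address spread between libraries. Alternatives were other scalings (DESeq2 1.42.0 size factors among them), count minimums, edgeR's exact test, pseudocounts and units. Coding sequences and promoters were aligned globally with Biopython 1.88.

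Genes named were the 5 members, Reg1, Reg2, the 4 members of each list with the highest mean TPM, the called members (up to 6, largest first), those at 0 needed for a count, the receptor candidate Extl3, and the 3 nearest protein-coding genes of members with a mean of at least 1 TPM. Those of Reg3g are not reported here. Cela1, Bhlha15, Kit, Socs3, Il23r, Duox2, Chga, S100a8 and S100a9 were named after their values were seen, and Ctrb1 was taken as a denominator after its values were seen. The members, lists and tests were chosen with earlier results of these data known.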

Additional observations from a re-analysis of the deposited data

How the results depend on the processing

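The number of members called between the libraries was 3 with TMM scaling, and it was also 3 with total counts, with DESeq2 size factors, with TMM on libraries without acinar, haemoglobin and mitochondrial genes, with a minimum summed count of 1 and with a pseudocount of 2. It was 1 at a minimum summed count of 100, which removes Reg3a and Reg3d from the test, and 1 with edgeR's exact test, which kept Reg3d and lost Reg3b and Reg3a. Over all genes the count of 1125 went to 415 at that minimum and to 239 with edgeR's exact test. The log2 ratio of Reg3b ranged from 1.46 to 1.48, that of Reg3g from -0.62 to -0.60, that of Reg4 from -0.51 to -0.49 and that of Reg3a from -2.01 to -1.73 over the alternatives run, and no member's ratio changed sign. The fitted ratio of Reg3d, which has 0 counts in replicate 1, ranged from -9.34 to -5.39 with the prior count. The summed level of the 5 genes, 527 TPM as a mean, ranged from 371 without replicate 1 to 683 without replicate 2. The share of the Reg3g coding transcript was 99.4% of abundance and 98.1% of expected counts, which are not divided by length, and ranged from 99.37% to 99.48% with a library left out. With 1 library on each side, leaving a library out ends every comparison between them. No paired analysis was possible because the study has a single group.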
